A study of Zonotrichia albicollis with 38 samples.

Results

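The genes described here are 48 genes of the white-throated sparrow (Zonotrichia albicollis) whose human counterparts lie on the short arm of human chromosome 2 (2p) and which, in the sparrow, belong to chromosome ZAL2. The rule for choosing them was position, and no measured value was part of it. The list was made with earlier results of these data known, and it is not all of 2p. Another 161 genes of human 2p with a row on the same chromosome were listed for comparison and are not members. That second list may not be complete. Of the 48, 42 had a row in the table of read counts, among 15111 genes counted in all. A row was found by symbol for 40 of them and by gene ID for MBOAT2 and HADHB. SOX11, NCOA1, DNMT3A, DTNB, ASXL2 and RAB10 had no row and were not analysed here. A gene table of another assembly (bZonAlb1.hap1) put 47 of the 48 on 1 chromosome, together with 1023 genes of the count table, and DTNB was not placed. FAM150B was placed through its current symbol, ALKAL2.

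Male white-throated sparrows come with white crown stripes (WS) or tan crown stripes (TS). Those of the WS morph carry ZAL2m, a rearranged form of ZAL2 with inversions, beside a standard ZAL2, whereas TS birds carry the standard form alone. Recombination between the arrangements is suppressed, so the ZAL2m copies of the genes inside the rearrangement have diverged from the ZAL2 copies. WS males are known for more territorial singing than TS males. ZAL2 matches chicken chromosome 3, and much of human 2p lies within that chromosome.

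RNA-seq had been made from 10 WS and 9 TS males, all free-living and caught in spring at the height of territoriality, a day after an intruder's song had been played in their territory. Each bird gave 1 library of hypothalamus (HYP), which took in preoptic, paraventricular, anterior and ventromedial parts, and 1 of medial amygdala (MeA), which also held some surrounding tissue. The punches of a region were pooled within a bird. The labels name no hormone or drug treatment in any group, and they give morph as WS or TS with no karyotype. Age was labelled ASY in 8 of 10 WS birds and 2 of 9 TS birds, and SY in 2 WS and 7 TS birds, so age class and morph went together. Stage was labelled E in 8 WS and 6 TS birds, and I, L or L/I in the other 5, with the letters not explained.

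Library totals ran from 7150476 to 14482856 counts. Levels are given as CPM (counts scaled to a common library total, with TMM factors), and differences as log2 fold changes from edgeR's quasi-likelihood fit with a standard error (SE). A gene was called at a Benjamini-Hochberg adjusted p under 0.05 over all genes tested. The tissue labels could be read in the markers. Of 7 hypothalamic genes 5 had a row, with a summed level of 178 to 241 CPM in HYP and 5.40 to 12.1 CPM in MeA, and 6 of 8 pallial genes summed to 137 to 182 CPM in HYP and 1321.0 to 1851.6 CPM in MeA. In MeA the first principal component held 36.7% of the variance, and 1 WS bird (Sample_23602) and 3 TS birds (Sample_23711, Sample_23620, Sample_23615) lay at its ends (single birds are named as in the sample titles), so MeA results are also given without these 4 birds.

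In HYP, 41 of the 42 members passed the filter on low counts, PLEK being the exception, and 4 were called between the morphs. RNF144A, SNTG2 and NBAS were higher in WS (0.469% of all genes were), and FAM150B was lower (0.327% of all genes were). That is 9.76% of the members tested, beside 0.796% of all 11930 genes tested, 9.46% of the 835 other genes of the same chromosome and 0.0410% of the 9750 genes placed on other chromosomes. The members' share was therefore near that of their chromosome. In bulk tissue, fewer cells of a type and less RNA per cell cannot be told apart.

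In MeA, 41 members were again tested, SNTG2 being too low, and 4 were called. STON1, FAM161A and PLEK were higher in WS (0.308% of all genes were), and FAM150B was lower (0.214% of all genes were). The share of 9.76% stood beside 0.523% of all 11672 genes tested, 6.18% of the 809 other genes of the chromosome and 0.0104% of the 9570 genes on other chromosomes. FAM150B was the 1 member called in both regions.

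**Figure D1:**
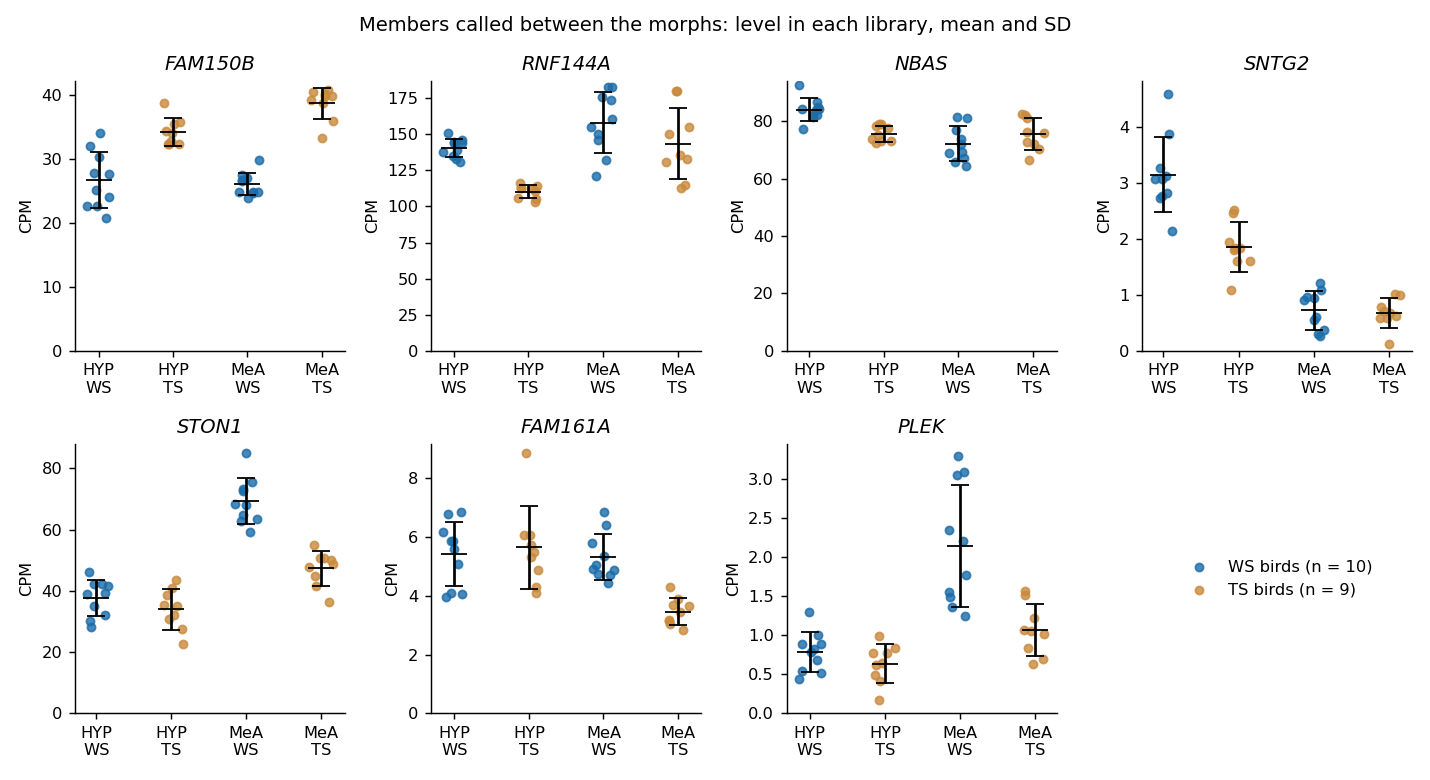
Level (CPM) in each library of the 7 members called between WS and TS birds in HYP or MeA; points are birds, and black bars show the mean and SD of each group. WS and TS birds do not overlap for RNF144A in HYP or for FAM150B, STON1 and FAM161A in MeA.

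FAM150B encodes a secreted ligand of the receptor tyrosine kinases ALK and LTK, known from mammals and fish. In HYP it stood at 20.7, 26.4 and 34.1 CPM (lowest, median and highest) in WS birds, against 32.3, 34.0 and 38.7 CPM in TS birds. All 10 WS birds lay below the TS mean and 9 of them below the lowest TS bird. The log2 fold change was -0.35 (SE 0.078, edgeR adjusted p = 0.0267). In MeA the values were 23.9, 25.8 and 29.8 CPM in WS birds and 33.3, 39.8 and 40.8 CPM in TS birds, with no overlap. The log2 fold change there was -0.57 (SE 0.052, edgeR adjusted p = 1.17e-06), and without the 4 birds at the ends of the principal component it was -0.54 (edgeR adjusted p = 0.000387).

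In MeA, FAM150B was lower in WS within both age classes. Among ASY birds it averaged 26.4 CPM in 8 WS and 39.6 CPM in 2 TS birds, and among SY birds 24.8 CPM in 2 WS and 38.4 CPM in 7 TS birds. With age as a covariate the MeA difference was -0.61 (edgeR adjusted p = 2.86e-05). In HYP the same model gave -0.41 (edgeR adjusted p = 0.0786), which no longer passed, and birds of stage E alone gave -0.35 (edgeR adjusted p = 0.233). Leaving out 1 bird at a time ended the HYP call for 7 of 19 birds, with adjusted p up to 0.0598, and the MeA call for none of the 19.

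The other secreted and surface members were not called in either region. PXDN (a peroxidase that cross-links basement membrane collagen), ADAM17 (a protease that sheds cell surface proteins), KIDINS220 (a transmembrane scaffold of neurotrophin receptors) and ITGB1BP1 (an integrin adaptor) had log2 fold changes from -0.09 to 0.05 in HYP and from -0.19 to 0.06 in MeA. KIDINS220 stood at 423, 456 and 477 CPM in HYP of WS birds and 457, 481 and 506 CPM in TS birds. MeA levels were 377, 453 and 491 CPM in WS birds and 467, 497 and 568 CPM in TS birds. In both regions all 10 WS birds were below the TS mean. The log2 fold changes were -0.08 and -0.19 (edgeR adjusted p = 0.344 in HYP and 0.161 in MeA), and DESeq2 called the MeA difference (adjusted p = 0.0346).

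RNF144A, an E3 ubiquitin ligase, had the smallest adjusted p among members in HYP. It was at 131, 141 and 151 CPM in WS birds, against 103, 112 and 116 CPM in TS birds. Every WS library lay above every TS library, with a log2 fold change of 0.35 (SE 0.033, edgeR adjusted p = 5.67e-07). MeA levels were 121, 158 and 183 CPM in WS birds and 113, 136 and 180 CPM in TS birds, ranges that overlapped almost fully. The MeA log2 fold change was 0.14 (SE 0.095, edgeR adjusted p = 0.685). RNF144A was the 1 member of 41 whose morphs did not overlap in HYP, 2.44%, beside 0.268% of all genes tested and 3.47% of other genes of the chromosome. The other ligase member, KLHL29 (a kelch protein), had log2 fold changes of -0.02 in HYP and 0.08 in MeA.

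The members of the cytoskeleton, scaffold and trafficking list gave the other 5 calls, all higher in WS. Of its 12 members 10 had a row, 9 were tested in each region, and 2 were called in HYP and 3 in MeA. Of all genes tested, 0.796% were called in HYP and 0.523% in MeA, and the larger shares of the chromosome are given above. The list was made with earlier results known, and whether it differs from the other lists was not tested. The median log2 fold change over the list was 0.01 in each region, as over all genes tested (-0.00 in HYP and 0.00 in MeA). The members not called included RHOB (a small GTPase), ROCK2 (a kinase that acts on the actin cytoskeleton), LAPTM4A (a lysosomal membrane protein) and ASAP2 (which acts on Arf GTPases).

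NBAS takes part in transport from the Golgi back to the endoplasmic reticulum. In HYP it was at 77.4, 84.0 and 92.6 CPM in WS birds, against 72.4, 75.1 and 79.1 CPM in TS birds. All 10 WS birds lay above the TS mean and 9 above the highest TS bird. WS exceeded TS by a log2 fold change of 0.15 (SE 0.034, edgeR adjusted p = 0.0329), the smallest change of the 7 called members. Leaving out 1 bird ended the call for 11 of 19 birds (adjusted p up to 0.0737), and stage E birds alone gave an adjusted p of 0.231. MeA levels were 64.4, 70.6 and 81.4 CPM in WS birds and 66.6, 76.0 and 82.4 CPM in TS birds, and the log2 fold change was -0.07 (edgeR adjusted p = 0.735).

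SNTG2, syntrophin gamma 2, is an adaptor of the dystrophin complex. It was low, with 24 to 52 counts per HYP library in WS birds and 10 to 30 in TS birds. In HYP it was at 2.15, 3.07 and 4.60 CPM in WS birds, against 1.08, 1.83 and 2.51 CPM in TS birds, and 9 of 10 WS birds lay above the highest TS bird. The log2 fold change was 0.75 (SE 0.16, edgeR adjusted p = 0.0173), and with age as a covariate it was 0.72 (edgeR adjusted p = 0.181). In MeA SNTG2 was not tested, with 3 to 13 counts in WS birds and 1 to 11 in TS birds, and the ranges of 0.265 to 1.21 CPM in WS and 0.120 to 1.02 CPM in TS overlapped.

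STON1, stonin 1, is related to adaptors of clathrin-coated pits. In MeA it was at 59.2, 68.1 and 84.9 CPM in WS birds, against 36.4, 48.9 and 54.9 CPM in TS birds. No TS bird reached the lowest WS bird, and the log2 fold change was 0.55 (SE 0.076, edgeR adjusted p = 0.000322), and it was 0.54 without the 4 birds at the ends of the principal component (edgeR adjusted p = 0.0124). HYP levels were 28.1, 39.1 and 46.1 CPM in WS birds and 22.5, 34.9 and 43.7 CPM in TS birds. There the ranges overlapped, and the log2 fold change was 0.15 (edgeR adjusted p = 0.842). Within age classes the HYP means were higher in WS. Among ASY birds STON1 averaged 36.9 CPM in 8 WS and 25.0 CPM in 2 TS birds, and among SY birds 40.4 CPM in 2 WS and 36.6 CPM in 7 TS birds.

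FAM161A encodes a protein of the ciliary base known from its part in inherited retinal disease. In MeA it was at 4.43, 4.98 and 6.83 CPM in WS birds, against 2.83, 3.46 and 4.31 CPM in TS birds, again with no overlap. The difference was a log2 fold change of 0.62 (SE 0.11, edgeR adjusted p = 0.00837). It was 0.55 with age as a covariate (edgeR adjusted p = 0.194) and 0.59 without the 4 birds (edgeR adjusted p = 0.150), so the size held while the call did not. HYP levels were 3.97, 5.73 and 6.85 CPM in WS birds and 4.10, 5.50 and 8.86 CPM in TS birds, with a log2 fold change of -0.06 (edgeR adjusted p = 0.968). With FAM150B and STON1 it made 3 of 41 members whose morphs did not overlap in MeA, 7.32%, beside 0.206% of all genes tested and 2.22% of other genes of the chromosome.

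PLEK, pleckstrin, is a substrate of protein kinase C in mammalian platelets and leukocytes. It was low in MeA, with 9 to 45 counts per library in WS birds and 5 to 18 in TS birds. Its level was 1.25, 1.99 and 3.30 CPM in WS birds, against 0.628, 1.06 and 1.57 CPM in TS birds, and 6 of 10 WS birds lay above the highest TS bird. This was a log2 fold change of 1.00 (SE 0.23, edgeR adjusted p = 0.0479), and without the 4 birds it was 1.03 (edgeR adjusted p = 0.206). Leaving out 1 bird ended the call for 13 of 19 birds, and the age covariate gave an adjusted p of 0.493. In HYP, where PLEK was not tested, it was at 0.443, 0.807 and 1.30 CPM in WS birds and 0.173, 0.648 and 0.997 CPM in TS birds.

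Markers of cells known to hold PLEK in mammals were measured beside it. Of 10 microglia and macrophage markers 6 had a row and none was called in MeA by edgeR. Their summed level was 74.7, 92.9 and 118 CPM in MeA of WS birds and 67.9, 80.9 and 95.4 CPM in TS birds. LY86 differed most of the 6 by MeA counts, with 2915 in the 10 WS libraries and 1841 in the 9 TS libraries. CSF1R had 3406 and 3035. Of 8 thrombocyte and red cell markers 4 had a row, and these summed to 10.0, 19.3 and 49.7 CPM in WS birds and 11.1, 18.3 and 48.5 CPM in TS birds. Most of these counts were of TAL1 (1871 in WS and 1542 in TS libraries). ITGA2B and GP9 were near 0, with MeA medians of 0.547 and 0.120 CPM, so the sum is a poor measure of thrombocytes. The part of any of these cells in the PLEK result was not tested. PLEK also overlaps CNRIP1 by whole gene span in the gene table, so reads of the 2 genes may be shared or left uncounted. The MeA log2 fold change of CNRIP1 was -0.01.

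The remaining role lists had no call in either region. Among the kinases, adaptors and calcium sensors (7 members, all tested), the median log2 fold change was -0.00 in HYP and -0.10 in MeA. HPCAL1, a neuronal calcium sensor, had the largest HYP difference of the list, -0.23 (SE 0.099, edgeR adjusted p = 0.574). It was at 358, 760 and 846 CPM in WS birds and 757, 834 and 934 CPM in TS birds, and the 358 CPM came from WS bird Sample_23604. SOS1, which activates Ras, had the largest MeA difference of the list, at 45.7, 48.8 and 55.0 CPM in WS birds and 52.8, 56.4 and 60.9 CPM in TS birds. All 10 WS birds were below the TS mean, and the log2 fold change was -0.18 (edgeR adjusted p = 0.119, DESeq2 adjusted p = 0.0216). MAP4K3, PRKCE (protein kinase C epsilon), YWHAQ (a 14-3-3 protein), TRIB2 (a pseudokinase) and VSNL1 (another calcium sensor) lay between -0.16 and 0.06 in the 2 regions.

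Among the transcription and chromatin members 7 of 11 had a row. ID2, an inhibitor of basic helix-loop-helix factors, was at 38.9, 45.0 and 52.0 CPM in HYP of WS birds and 47.1, 50.7 and 57.5 CPM in TS birds, a log2 fold change of -0.18 (edgeR adjusted p = 0.152). MYT1L, a zinc finger factor of neurons, was at 319, 349 and 432 CPM in MeA of WS birds and 365, 420 and 465 CPM in TS birds, a log2 fold change of -0.20 (edgeR adjusted p = 0.196). Neither difference passed, and the morphs overlapped in both. EPAS1 (a hypoxia-inducible factor), KLF11, E2F6, TAF1B (a factor of RNA polymerase I) and ATAD2B ranged from -0.14 to 0.20.

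Among the RNA and DNA processing members, CPSF3, the nuclease that cuts pre-mRNA before polyadenylation, was lower in WS by sign in both regions. In HYP it was at 33.4, 39.2 and 42.1 CPM in WS birds and 39.7, 42.9 and 48.2 CPM in TS birds. In MeA it was at 29.3, 33.1 and 34.3 CPM in WS birds and 34.2, 36.7 and 39.5 CPM in TS birds. All 10 WS birds were below the TS mean in each region, and in MeA 9 of 10 were below the lowest TS bird. The log2 fold changes were -0.17 with an SE of 0.049 in HYP and -0.18 with an SE of 0.045 in MeA (edgeR adjusted p = 0.141 and 0.106), so neither passed. CPSF3 overlaps ITGB1BP1 in the gene table. NOL10, a nucleolar protein, had 0.20 in HYP (edgeR adjusted p = 0.258) and 0.03 in MeA, and DDX1, PUM2 and MSH6 stayed within -0.05 to 0.06.

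Among the 6 metabolic members, LPIN1, a phosphatidate phosphatase of lipid synthesis, differed in opposite directions in the 2 regions. In HYP it was at 32.9, 35.7 and 40.3 CPM in WS birds and 26.5, 30.7 and 35.6 CPM in TS birds. In MeA it was at 22.5, 32.5 and 37.4 CPM in WS birds and 27.7, 35.4 and 53.0 CPM in TS birds. All 10 WS birds lay above the TS mean in HYP and all 10 below it in MeA. The log2 fold changes were 0.20 in HYP and -0.28 in MeA (edgeR adjusted p = 0.126 and 0.530), neither of which passed. MBOAT2 (an acyltransferase of phospholipids), ODC1 (the first enzyme of polyamine synthesis), PDIA6 (a protein disulfide isomerase) and the mitochondrial fatty acid oxidation subunits HADHA and HADHB ranged from -0.21 to 0.12.

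Over all members the differences were small and spread to both sides. In HYP the median log2 fold change was 0.02, with 24 of 41 members higher and 17 lower in WS by sign. The MeA median was -0.05, with 19 higher and 22 lower. The median size, regardless of sign, was 0.08 in HYP, beside 0.09 for other genes of the chromosome and 0.05 for genes on other chromosomes, and 0.11 in MeA, beside 0.12 and 0.07. In HYP 3 members reached a size over 0.25 (7.32%, beside 17.1% of other genes of the chromosome and 6.30% of all genes). In MeA 5 members did (12.2%, beside 21.9% and 11.1%). On this measure the members were near the share of all genes. An unadjusted p under 0.05 was reached by 15 of 41 members in HYP (36.6%, beside 34.7% of other genes of the chromosome and 7.59% of all genes) and by 14 in MeA (34.1%, beside 31.9% and 8.85%). No member differed by over 2-fold in a region where it was tested.

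**Figure D2:**
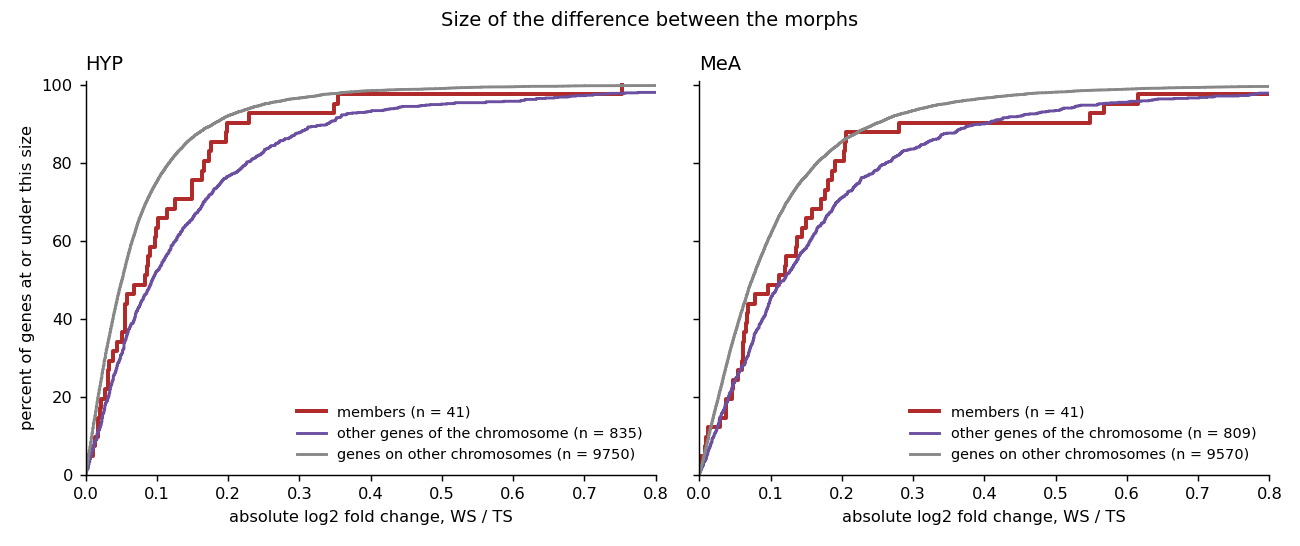
Cumulative percent of genes against the absolute log2 fold change between WS and TS birds, in HYP (left) and MeA (right), for the 41 members tested, the other genes of their chromosome and genes on other chromosomes. The median size for members was 0.08 in HYP and 0.11 in MeA, and the line of the members runs between the other lines over most of the HYP panel.

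The region-specific calls were set beside the test of the difference itself. Of 40 members tested in both regions, 1 was called in both, 2 in HYP alone, 2 in MeA alone and 35 in neither. SNTG2 and PLEK, each tested and called in 1 region, are not among the 40. Of all genes tested, 0.796% were called in HYP and 0.523% in MeA. By sign, 13 of the 40 were higher in WS in both regions, 12 were lower in both and 15 had opposite signs. Shared calls and signs were not counted over all genes, so these numbers have no background beside them. In the model of morph by region, with the bird as a block, edgeR called none of 42 members, beside 0.0245% of 12245 genes. DESeq2 called 1, STON1, with a difference between regions of -0.39 (adjusted p = 0.0307), beside 0.139% of all genes. At an unadjusted p under 0.05 there were 14 members (33.3%), beside 17.0% of other genes of the chromosome and 10.5% of all genes. For the members called in 1 region alone, edgeR therefore called no difference between the regions.

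The members with the smallest interaction p were STON1, FAM161A and LPIN1. The morph difference in HYP minus that in MeA was -0.40 for STON1 (SE 0.085), -0.67 for FAM161A (SE 0.15) and 0.47 for LPIN1 (SE 0.11). Their edgeR adjusted p was 0.150, 0.150 and 0.236. The difference between regions was 0.21 for RNF144A (SE 0.096, edgeR adjusted p = 0.459), 0.22 for NBAS (SE 0.060, adjusted p = 0.315) and 0.20 for FAM150B (SE 0.076, adjusted p = 0.399). It was positive in 29 of 42 members, 69.0%, beside 52.5% of other genes of the chromosome.

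In the gene table the 47 placed members fell into 6 runs, separated by more than 40 counted genes that are not members. The longest, from ATAD2B to FAM150B, held 32 members, 31 with a row. All 4 members called in HYP lay in it, as did 31 of the 41 members tested there. The 3 members higher in WS in MeA lay outside this run. Of all genes tested, 0.796% were called in HYP and 0.523% in MeA. Whether calls gather along the chromosome was not tested. FAM161A and PLEK each stood alone, and STON1 began a run that ended with SOS1. In the long run 1 of 30 members tested in MeA was called, FAM150B, and the median log2 fold change of the run was 0.03 in HYP and -0.06 in MeA.

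**Figure D3:**
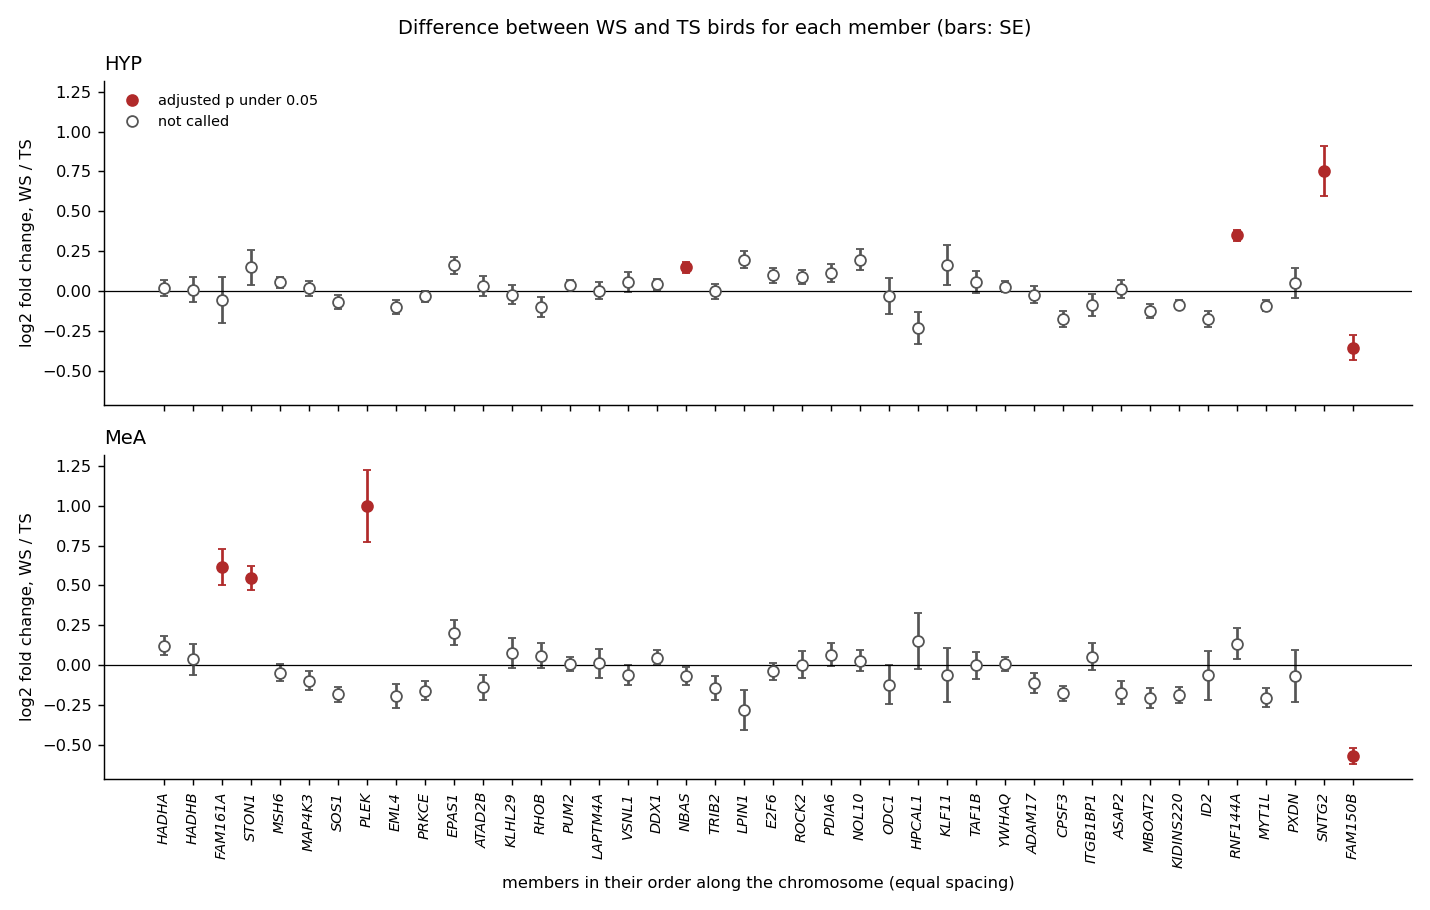
Log2 fold change between WS and TS birds, with its SE, for each member in its order along the chromosome, in HYP (top) and MeA (bottom); filled points were called. The HYP calls lie at NBAS, RNF144A, SNTG2 and FAM150B on the right, and the MeA calls at FAM161A, STON1 and PLEK on the left and FAM150B at the right end.

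The genes next to the called members were read from the same fits. RNF144A stands between ID2 (-0.18 in HYP, not called) and RSAD2 (0.71, not called), and CMPK2, the next gene, was lower in HYP of WS birds by a log2 fold change of -0.99 (edgeR adjusted p = 2.33e-06). TMEM18 lies between SNTG2 and FAM150B and was lower in HYP of WS birds (-0.27, edgeR adjusted p = 0.00695), like FAM150B and unlike SNTG2. CCT4 and XPO1 on either side of FAM161A had log2 fold changes of 0.02 and 0.05 in MeA, and PPP1R21 beside STON1 had -0.09. DDX1 and TRIB2 on either side of NBAS had 0.04 and -0.00 in HYP.

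A list of 161 other genes of human 2p with a row on the same chromosome was read beside the members. It may not be complete, and TMEM18, the called neighbour named above, is not on it. In HYP 12 of 150 tested were called, 6 higher and 6 lower in WS, and in MeA 8 of 147, 4 higher and 4 lower. ADI1 was lower in WS in HYP (-0.42, edgeR adjusted p = 7.51e-06) and in MeA (-0.34, adjusted p = 0.0367), and C1D was likewise lower in both (-0.32 and -0.36). GPATCH11 was higher in WS in both (0.25 and 0.36). In HYP alone the calls were CMPK2, LTBP1, EFEMP1 and MCFD2, lower in WS by log2 fold changes from -0.99 to -0.16, and GREB1, SRBD1, MTA3 and YPEL5, higher by 0.15 to 0.65. In MeA alone they were EHD3 and CEBPZ, lower (-0.19 and -0.18), and RRM2 and GEMIN6, higher (1.48 and 0.39). Whether the members and these genes differ as groups was not tested.

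Calls were more frequent between the regions than between the morphs. HYP and MeA of the same birds differed in 35 of 42 members (83.3%), 18 higher and 17 lower in HYP, beside 80.0% of all 12245 genes tested (41.0% higher and 39.1% lower). The highest in HYP were SNTG2, MBOAT2, TAF1B, TRIB2, YWHAQ and KLF11. SNTG2 was at 1.08, 2.51 and 4.60 CPM in HYP, against 0.120, 0.674 and 1.21 CPM in MeA, higher in HYP in all 19 birds. Its log2 fold change was 1.80 (SE 0.15, edgeR adjusted p = 2.19e-10). SNTG2 passed the filter on low counts here through its HYP libraries, being too low in MeA to be tested there. MBOAT2 was at 123, 142 and 172 CPM in HYP and 59.0, 79.7 and 93.1 CPM in MeA, with no overlap. TAF1B, TRIB2, YWHAQ and KLF11, with log2 fold changes of 0.69, 0.67, 0.64 and 0.45, were also higher in HYP in each of the 19 birds.

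The lowest in HYP were RHOB, PLEK, PRKCE, MYT1L, STON1 and LAPTM4A. RHOB was at 63.5, 77.6 and 97.6 CPM in HYP, against 144, 188 and 223 CPM in MeA, with no overlap and a log2 fold change of -1.22 (SE 0.037, edgeR adjusted p = 9.04e-19). PLEK had -1.09, and 18 of 19 birds were lower in HYP. It passed the filter on low counts through its MeA libraries, being too low in HYP to be tested there. PRKCE, MYT1L, STON1 and LAPTM4A had -0.80, -0.73, -0.69 and -0.67 and were lower in HYP in all 19 birds. The 7 members not called were FAM150B, KIDINS220, ODC1, SOS1, LPIN1, PDIA6 and ITGB1BP1, among them the 1 member that was called between the morphs in both regions. All tested members of the trafficking (10), transcription (7), RNA and DNA processing (5) and ligase (2) lists differed between regions. So did all but 1 of the 7 kinases, adaptors and calcium sensors, 2 of 5 secreted and surface members and 3 of 6 metabolic members. Of all genes tested, 80.0% differed.

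**Figure D4:**
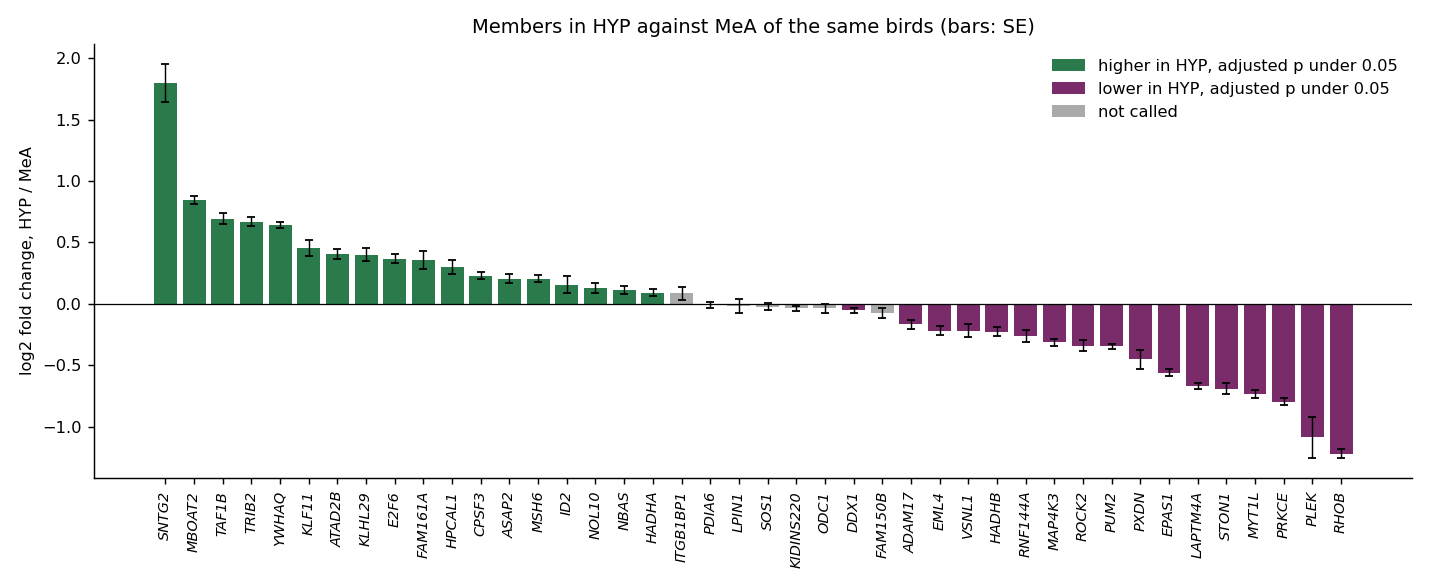
Log2 fold change of each member between HYP and MeA of the same 19 birds, with its SE, ordered from highest to lowest. The values run from 1.80 for SNTG2 to -1.22 for RHOB, and 7 members near 0 were not called.

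Neither age class nor stage gave a call. With morph in the model, edgeR called none of 41 members between ASY and SY birds in either region, and none of all genes tested (0% in both), with 3 members in HYP and 1 in MeA at an unadjusted p under 0.05 (4.71% and 3.58% of all genes). The smallest was EPAS1 in MeA, with a log2 fold change of 0.27 (p = 0.00301, edgeR adjusted p = 1.000). Between birds of later stages and stage E no member was called in either region (0% of all genes), with 1 in HYP (5.67% of all genes) and 7 in MeA at an unadjusted p under 0.05. These 7 were 17.1% of members tested in MeA, beside 8.97% of all genes, and ROCK2 led them with 0.26 (p = 0.00279, edgeR adjusted p = 0.523). DESeq2 called no member in any of the 4 comparisons, beside 0.0168% of all genes for age in HYP, 0.00857% for age in MeA, 0.176% for stage in HYP and 0.103% for stage in MeA.

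Members differed widely in how tightly birds of a morph agreed. The SD as a percent of the mean, averaged over the morphs, was lowest in HYP for PUM2 (an RNA-binding repressor of translation, 3.04%), MSH6 (3.54%), KIDINS220 (3.61%), NBAS (4.17%) and YWHAQ (4.27%). It was highest in HYP for PLEK (35.6%), FAM161A and SNTG2 (22.5% each), STON1 (17.7%) and KLF11 (17.4%). In MeA the lowest were CPSF3 (5.28%), YWHAQ, SOS1, PUM2 and MSH6 (6.44%), and the highest SNTG2 (43.3%), PLEK (33.5%), PXDN (28.4%), HPCAL1 (24.8%) and ID2 (24.0%). NBAS, with the smallest called difference, was thus among the members with the least spread in HYP.

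Part of the spread in HPCAL1 and KLF11 came from 1 bird, which was picked out after its values had been seen. WS bird Sample_23604 had the lowest level of ODC1, HPCAL1 and KLF11 of all 19 birds in both regions. Its libraries also had the lowest total of their region, 7150476 counts in HYP and 7342059 in MeA. ODC1 stood at 27.6 CPM in its HYP library, against 55.8 to 75.0 CPM in the other 18 birds, and at 28.7 CPM in MeA, against 56.4 to 84.5 CPM. HPCAL1 stood at 358 CPM in HYP, against 678 to 934 CPM in the others, and at 247 CPM in MeA, against 347 to 844 CPM. KLF11, a zinc finger repressor, stood at 5.60 CPM in HYP, against 8.34 to 15.4 CPM, and at 2.65 CPM in MeA, against 6.16 to 11.1 CPM. As a ratio to the median of the other birds these levels were 0.429, 0.442 and 0.486 in HYP and 0.447, 0.352 and 0.322 in MeA.

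The 3 genes lie next to each other but for RRM2 and CYS1, which are not members. The nearest members on either side were not low in this bird: NOL10 had ratios of 1.17 in HYP and 0.928 in MeA, TAF1B 0.997 and 1.15, and YWHAQ 0.959 and 0.937. Between them, RRM2, a subunit of ribonucleotide reductase, had 0.439 in HYP, below all other birds, and 0.468 in MeA, where the lowest other bird had 0.246. CYS1 had 0.436 in MeA, below all other birds, and 0.610 in HYP, where the lowest other bird had 0.580. GRHL1, which is not a member and lies between KLF11 and TAF1B, had 2.09 in HYP, above all other birds. Its HYP level was 2.87 CPM in this bird and at most 2.72 CPM in the others. In MeA GRHL1 had 0.443, where the lowest other bird had 0.373. Without this bird the HPCAL1 difference between the morphs was -0.15 with an SE of 0.042 in HYP (edgeR adjusted p = 0.124) and 0.25 with an SE of 0.13 in MeA (adjusted p = 0.462). No call of a member turned on it except NBAS in HYP, which was lost with this bird left out as with 10 others.

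**Figure D5:**
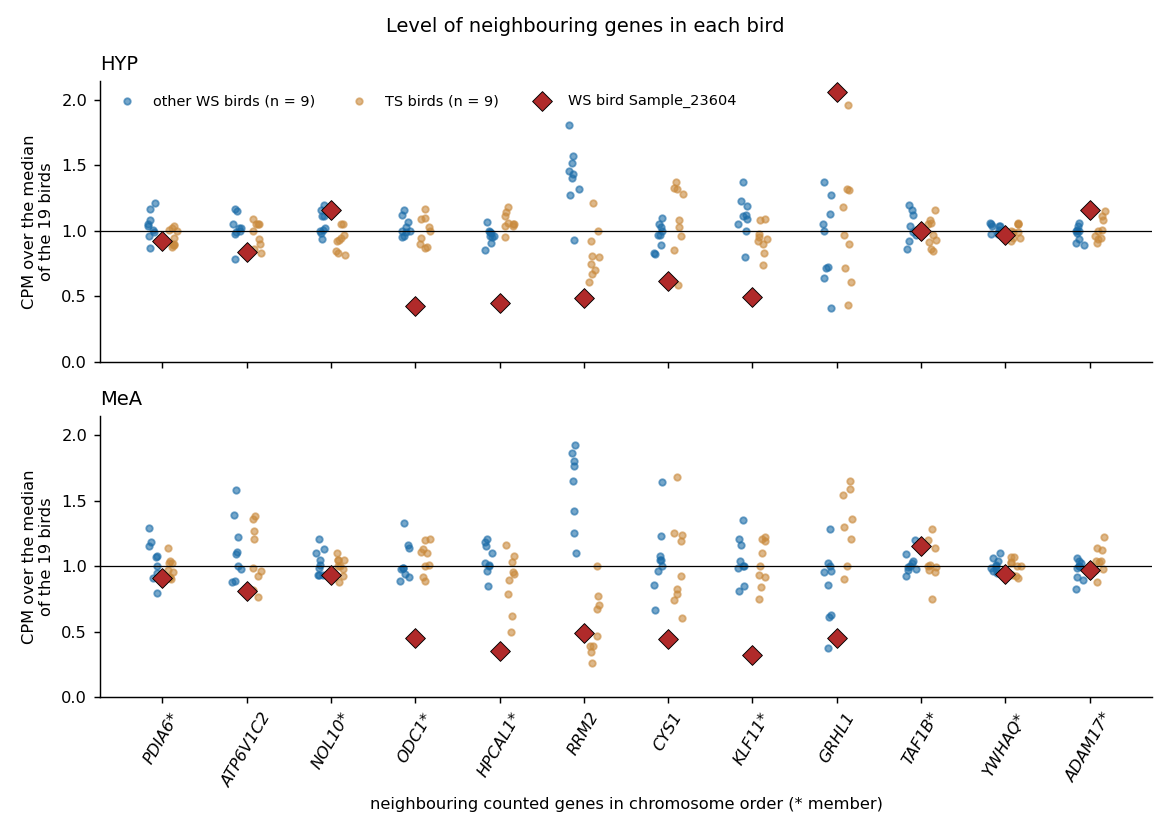
CPM of neighbouring genes divided by the median of the 19 birds, in HYP (top) and MeA (bottom), for WS bird Sample_23604 (diamonds), the other 9 WS birds and the 9 TS birds. The diamonds lie below all other birds at ODC1, HPCAL1 and KLF11 in both regions and among them at PDIA6, NOL10, TAF1B and YWHAQ.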

How the data were processed

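Per the labels' protocols, RNA came from a Qiagen AllPrep kit and libraries from Illumina's TruSeq RNA kit v2. The authors deposited read counts per gene and library, not normalized, and 1 table per region of variance-stabilized values on about a log2 scale. The submitters' processing notes name STAR, Novoalign, HTSeq, SAMtools, GATK and DESeq2 without versions or roles. The name of the count table mentions ZAL2m; not given in the sources used here are the build, the use of strand, the handling of multiply matching reads and the way in which ZAL2m was added. Reads of overlapping genes may therefore be shared or left uncounted (PLEK with CNRIP1, VSNL1 with SMC6, PDIA6 with ATP6V1C2, ADAM17 with IAH1, CPSF3 with ITGB1BP1 and ID2 with an unnamed gene). These overlaps are of whole gene spans, introns included, in the bZonAlb1.hap1 table, and overlap of exons was not looked at. A further 2 columns belong to a bird outside the sample list and were not used.

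Counts were tested across all genes with edgeR 4.0.16 in R 4.3.3 (TMM, filterByExpr, quasi-likelihood F test, Benjamini-Hochberg adjustment). Morph was compared within each region, age class and stage with morph in the model, and region and the morph by region term over all 38 libraries, with a block for the bird. Band numbers in the titles pair the libraries of a bird: over 10158 genes, 19 of 19 birds correlated best with their own other region (r 0.261 to 0.517, highest other 0.187). SEs were derived by dividing the size of the log2 fold change by the root of F. CPM use TMM sizes over all libraries and are not corrected for gene length. DESeq2 1.42.0, limma 3.58.1 (voom, and on the deposited log2-scale values) and other filters, covariates and subsets were alternatives. The fits were tested on simulated data. Gene positions came from the bZonAlb1.hap1 table and served for order, neighbours and overlaps. The sets of genes on the members' chromosome and on other chromosomes, and the matches by gene ID, rest on the same table.

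The members and lists were chosen with earlier results of these data known. Named with values were all called members, the largest difference of each role list in each region, the 6 highest and 6 lowest members between regions, the 5 members of least and of most spread, called genes of the other 2p list (1 is not reported here), and neighbours of called members; the other members given with values, the interaction values and the genes around HPCAL1 were picked after their values were seen.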

Additional observations from a re-analysis of the deposited data

Results flagged for a closer look

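In each of 168 groups of libraries (42 members, 2 regions and 2 morphs) the highest and lowest bird were compared with the rest by Dixon's ratio, and a bird stood apart in 14 cases. Chance flags about 1 in 20 groups. WS bird Sample_23604 gave 5 of the 14, all of them low values of 3 neighbouring genes. In HYP it had 27.6 CPM of ODC1, with the next WS bird at 61.1 CPM, and 358 CPM of HPCAL1, with the next at 678 CPM. In MeA it had 28.7 CPM of ODC1 (next 56.5 CPM), 247 CPM of HPCAL1 (next 592 CPM) and 2.65 CPM of KLF11 (next 6.63 CPM).

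Among the other WS birds, Sample_23602 was low in MeA for E2F6 at 90.9 CPM (next 108 CPM) and VSNL1 at 1504.9 CPM (next 1757.2 CPM), and it is also one of the birds at the ends of the first principal component there. WS bird Sample_23625 was low for HADHB in HYP at 47.7 CPM (next 62.2 CPM) and high for PXDN in MeA at 50.4 CPM (next 29.0 CPM). Among TS birds, the highest stood apart for CPSF3 in HYP at 48.2 CPM (bird Sample_23623, next 43.8 CPM), FAM161A in HYP at 8.86 CPM (bird Sample_23608, next 6.06 CPM), VSNL1 in HYP at 1895.9 CPM (bird Sample_23607, next 1643.7 CPM) and MSH6 in MeA at 50.4 CPM (bird Sample_23626, next 45.0 CPM). TS bird Sample_23608 was low for SNTG2 in MeA at 0.120 CPM (next 0.589 CPM), which is 1 read.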

How the results depend on the processing

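Members called between WS and TS numbered 4 in HYP and 4 in MeA, beside 0.796% and 0.523% of all genes tested. In the model with age they were 2 in HYP (RNF144A and NBAS) and 2 in MeA (FAM150B and STON1), and with stage E birds alone 2 in HYP (RNF144A and SNTG2) and 2 in MeA (FAM150B and STON1). Without the 4 birds at the ends of the first principal component, an alternative chosen after seeing the data, 2 were called in MeA. Leaving out 1 bird at a time gave 2 to 4 calls in HYP, 3 to 4 in MeA, 0 in the interaction and 33 to 35 between regions. DESeq2 called 6 in MeA, adding SOS1 and KIDINS220, and 1 in the interaction (STON1). Without the replicate block for the bird, 0 members were called in the interaction and 33 between regions, against 0 and 35 with it. For these alternatives no share of all genes is given here, apart from 0.139% for DESeq2 in the interaction. Their counts of members therefore have no background beside them. Over all 527 pairs of an alternative and a call (those between morphs, and the 6 highest and 6 lowest members between regions), no direction turned, 481 stayed on their side of the threshold and 46 lost it, 20 of them PLEK in planned settings. Among these pairs, sizes moved by over 1.5 times in limma on the deposited variance-stabilized values alone, where the difference was 0.17 for SNTG2 (0.75 in edgeR) and -0.23 for FAM150B (-0.35) in HYP, and 0.23 for both FAM161A (0.62) and PLEK (1.00) in MeA. Those are differences of variance-stabilized values, a different measure from a log2 fold change of counts, so the sizes cannot be compared directly. RNF144A in HYP and FAM150B and STON1 in MeA were called in every alternative run. The cause of the lost calls was not tested; subsets and age, which goes with morph, also leave fewer birds or degrees of freedom. SNTG2 and PLEK had few counts. Where each was called, the lowest library had 10 counts of SNTG2 (HYP) and 5 of PLEK (MeA). Where each was not tested, the lowest had 1 count of SNTG2 (MeA) and 2 of PLEK (HYP).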

Other observations

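Next to the genes low in WS bird Sample_23604 lies RRM2, a gene of human 2p that is not among the members and that takes part in making deoxyribonucleotides. RRM2 was higher in WS birds in MeA (log2 fold change 1.48, edgeR adjusted p = 0.00547) and had 0.68 in HYP, where it was not called (adjusted p = 0.103). Without bird Sample_23604 the HYP difference was 0.76 and was called (edgeR adjusted p = 0.0111), and the MeA difference was 1.58 (adjusted p = 0.000781). RRM2 was low, and this bird had the lowest HYP level, 1.04 CPM against 1.30 to 3.88 CPM in the others. Leaving out a low WS bird after its values were seen raises the difference, so the HYP call is no added support. Genes tested in both regions numbered 11434. Of these, 15 were lowest in this bird in both regions and had both ratios under 0.6 to the median of the other 18 birds. Of these 15, 4 lay on the chromosome of the members, among them ODC1, HPCAL1 and KLF11. The count of such genes was 7 to 27 in the birds as a whole. Of the other 18 birds, only Sample_23599 had over 1 such gene on that chromosome. No 2 of its 3 genes lay within 2 places of each other, and in the rest no such pair was possible. Bird Sample_23604 was picked for these same genes before the counting, so the counts restate the observation and are no independent support.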
